A study of Mus musculus with 7 samples.

Results

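Alveolar type 1 (AT1) epithelial cells were chosen by raw counts of unique molecular identifiers (UMIs) for marker genes. A barcode was taken when Ager, Rtkn2, Akap5 and Hopx summed to at least 4 UMIs and Cldn18, Clic5 and Aqp5 to at least 1, with no Ptprc or Foxj1 UMI and at most 1 UMI of Cdh5 and Pecam1 together. The rule found 203 of 50955 kept barcodes (0.398%). They numbered 115, 15 and 13 in Smad4fl/fl 1 to 3 and 20, 6, 9 and 25 in Smad4iko 1 to 4. The members were mixed: 90 cells also met a gate for surfactant-making alveolar type 2 (AT2) cells, and AT1 genes were high, as summed levels, in the 106 cells left after these and 7 further cells were set apart.

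The libraries came from the peripheral lung of 8-week-old mice, 3 Smad4fl/fl and 4 Smad4iko, with 1 library per mouse sample after digestion with collagenase and DNase. Smad4iko mice are Smad4fl/fl mice with Rosa26-creERT2, a tamoxifen-activated Cre at a locus active in most cell types, so deletion was not aimed at AT1 cells, and the floxed exon is not given. The Smad4fl/fl controls were littermates that lacked Cre. Mice of both genotypes, controls included, received 5 tamoxifen injections of 75 mg/kg between postnatal days 21 and 26.

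AT1 cells are the thin squamous cells that cover most of the alveolar surface and, with the capillary endothelium and a shared basement membrane, form the barrier for gas exchange. AT2 cells are cuboidal, secrete surfactant and can give rise to AT1 cells. AT1 cells are also known as a source of signals to their neighbours, among them VEGFA for capillaries, and carry an integrin that activates latent TGF-beta, whose signal SMAD4 helps to carry into the nucleus.

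The 203 cells were split into 3 sets after their values had been seen. Surfactant-high cells are the 90 that also met the gate for AT2-like cells, with at least 5 Sftpc UMIs and at least 3 of Lamp3, Abca3, Slc34a2 and Napsa together. Scgb1a1-high cells are 7 others that drew at least 5% of their UMIs from Scgb1a1, a secretoglobin of club cells. The remaining 106, 52.2% of the members, are called surfactant-low. They are a remainder, not cells chosen for AT1 genes. In Smad4fl/fl 1, 1 of them held as little as 399 CPM (UMIs of a gene scaled to the total of its cells) of the 4 rule markers. A further deep cell there held 2804 CPM over 14622 UMIs. In Smad4iko 1 a cell with 1121 CPM gave 8919 of the 71447 surfactant-low UMIs. In Smad4iko 2 the leukocyte markers of its 2 surfactant-low cells summed to 17319 CPM. Differences between these sets are descriptions and carry no test.

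**Figure D1:**
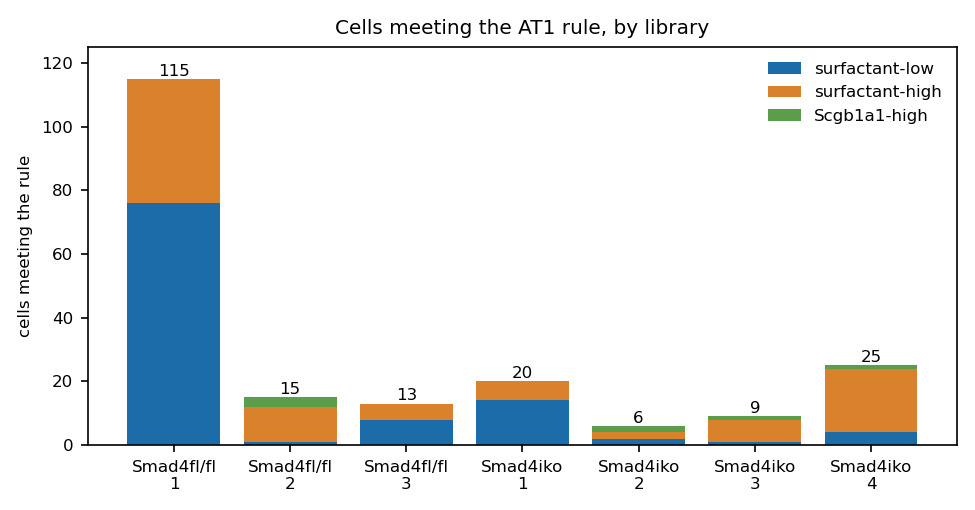
Bars give the number of cells meeting the rule in each of the 7 libraries, stacked by set. Smad4fl/fl 1 holds 115 cells, 76 of them surfactant-low, and Smad4iko 4 holds 20 surfactant-high but 4 surfactant-low cells.

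Some libraries stood apart. Smad4fl/fl 1 gave 56.7% of the members and had 3882 barcodes without a Ptprc UMI, where the other 6 had 465 to 1012. In aCap-like capillary cells, genes of dissociation and stress summed to 27148, 13819.8, 16140.1, 22153, 16751, 6873 and 7847 CPM in Smad4fl/fl 1 to 3 and Smad4iko 1 to 4, lowest in Smad4iko 3 and 4. Libraries held 46449235 to 66557262 UMIs, with a median of 4518 to 6452 per kept barcode. Of the members, 0 were called doublets by Scrublet, and 3 had a barcode that also occurred in another library.

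Surfactant-low cells numbered 76, 1 and 8 in Smad4fl/fl 1 to 3 and 14, 2, 1 and 4 in Smad4iko 1 to 4. Levels of the sets are given for Smad4fl/fl 1, Smad4fl/fl 3, Smad4iko 1 and Smad4iko 4, in that order, as CPM over the summed UMIs of the set in that library. A single UMI equals 2.91, 32.5, 14 and 49.2 CPM there, so a 0 in Smad4iko 4 allows up to 147 CPM (3 UMIs). The other 3 libraries held 910, 5081 and 612 surfactant-low UMIs and give no levels. Intervals are exact 95% Poisson intervals and cover counting error only.

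Promoters of marker genes are shown because both sets expressed Nkx2-1, the lung epithelial transcription factor with known targets in AT1 and AT2 cells, while Tead1, which binds DNA for YAP and TAZ, was higher in the surfactant-low set. The letters CAAGTG (NKX2-1) and GGAATG (TEAD), which can share at most 1 base, were searched on both strands in the 250 bases before each RefSeq start site (GRCm38.p6). Of 32851 promoters, 11.6% held the first and 12.6% the second. Of 17 AT1 marker genes, 14 had an entry (Rtkn2 had none), with 19 start sites; 2 genes held the NKX2-1 letters and 0 the TEAD letters. Of 10 AT2 marker genes, 7 had an entry; 1 held the NKX2-1 letters and 3 (Lamp3, Abca3 and Slc34a2) the TEAD letters. A match describes letters and is not a binding site. Shown are Ager, which has neither motif, and the 3 genes with the NKX2-1 letters, in capitals and reading CACTTG where they lie on the opposite strand.
Ager, chr17:34597600-34597849, plus strand: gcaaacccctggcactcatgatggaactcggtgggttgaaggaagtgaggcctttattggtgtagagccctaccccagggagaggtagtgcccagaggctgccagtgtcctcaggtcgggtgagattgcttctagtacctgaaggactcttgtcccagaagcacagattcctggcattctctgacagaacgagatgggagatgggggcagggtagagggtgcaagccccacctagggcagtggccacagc
Cldn18 at its second start site, chr9:99710064-99710313, minus strand: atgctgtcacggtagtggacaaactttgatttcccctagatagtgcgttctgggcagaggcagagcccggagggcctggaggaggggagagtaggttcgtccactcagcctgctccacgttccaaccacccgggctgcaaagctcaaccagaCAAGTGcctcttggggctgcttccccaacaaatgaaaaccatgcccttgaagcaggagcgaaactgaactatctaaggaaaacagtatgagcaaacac
Scnn1g, chr7:121734229-121734478, plus strand: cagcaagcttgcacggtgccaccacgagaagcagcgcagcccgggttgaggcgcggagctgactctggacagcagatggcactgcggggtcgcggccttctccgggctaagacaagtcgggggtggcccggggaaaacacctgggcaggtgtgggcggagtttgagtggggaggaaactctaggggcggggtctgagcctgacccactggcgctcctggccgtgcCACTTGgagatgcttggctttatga
Sftpa1, chr14:41131538-41131787, plus strand: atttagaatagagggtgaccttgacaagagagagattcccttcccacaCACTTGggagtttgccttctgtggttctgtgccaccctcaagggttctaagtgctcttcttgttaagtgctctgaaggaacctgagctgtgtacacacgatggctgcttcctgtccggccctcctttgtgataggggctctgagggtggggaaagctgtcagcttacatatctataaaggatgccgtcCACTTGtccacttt
The capitals begin at position -98 in Cldn18, -25 in Scnn1g and -202 and -14 in Sftpa1, counted back from the start site.

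The rule markers chose the cells and are given as a description. Ager encodes the receptor RAGE of the AT1 membrane (ENSMUSG00000015452, chr17:34597862-34600936, plus strand, GENCODE M21, GRCm38). Over all members it stood at 6840.3, 374 and 5628 CPM in Smad4fl/fl 1 to 3 and 5929.9, 518, 473 and 1725 CPM in Smad4iko 1 to 4. Its level was low in the libraries with few surfactant-low cells, of either genotype. In surfactant-low cells Ager stood at 15312, 20449, 14920.2 and 20058 CPM, in surfactant-high cells at 1005, 644, 750.0 and 842 CPM and in leukocytes at 8.87, 2.33, 1.62 and 1.78 CPM. Both sets of members lay above leukocytes, and the surfactant-low set was the higher in each library.

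Hopx, an atypical homeodomain protein (ENSMUSG00000059325, chr5:77086988-77115121, minus strand), stood at 6196, 8147, 7684 and 5457 CPM in surfactant-low and 96.1, 43.7, 8.06 and 18.4 CPM in surfactant-high cells, beside 45, 61.9, 46.9 and 62.6 CPM in leukocytes. Rtkn2 (ENSMUSG00000037846, chr10:67979570-68059740, plus strand), stood at 1299, 1979.9, 1428 and 1524 against 6.00, 0, 0 and 9.18 CPM. Akap5, a kinase anchor protein (ENSMUSG00000021057, chr12:76324891-76334153, plus strand), stood at 1043, 1201, 1036 and 688 against 34, 0, 0 and 18.4 CPM. Of the 90 surfactant-high cells, all held Ager, while 66, 82 and 77 had no UMI of Hopx, Rtkn2 and Akap5, so most of them met the rule through Ager. Of the 106 surfactant-low cells, 9 lacked Ager and 7 met it through Hopx alone.

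Sftpc, the surfactant protein that defines AT2 cells and helped make the split, stood at 185932, 144222, 184575 and 157293 CPM in surfactant-high cells and 352, 0, 98 and 49.2 CPM in surfactant-low cells, beside 288, 33.9, 48.6 and 20.3 CPM in leukocytes. The surfactant-low sums lay far below the surfactant-high ones. In Smad4fl/fl 1, however, the 38 surfactant-low cells with fewer than 1500 UMIs held 1021 CPM (715 to 1413), above the leukocytes of that library, and the 38 deeper cells 275 CPM (219.8 to 340.2). Of the 103 cells that met the AT2 gate, 90 (87.4%) also met the AT1 rule. Depth differed between the sets: the median was 1962 UMIs per surfactant-low and 14336 per surfactant-high cell. The 4 rule markers summed to a median of 25873 CPM per surfactant-low and 882 CPM per surfactant-high cell. The rule's minimum of 4 UMIs is a higher CPM in a shallower cell, and its part in these medians was not tested.

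**Figure D2:**
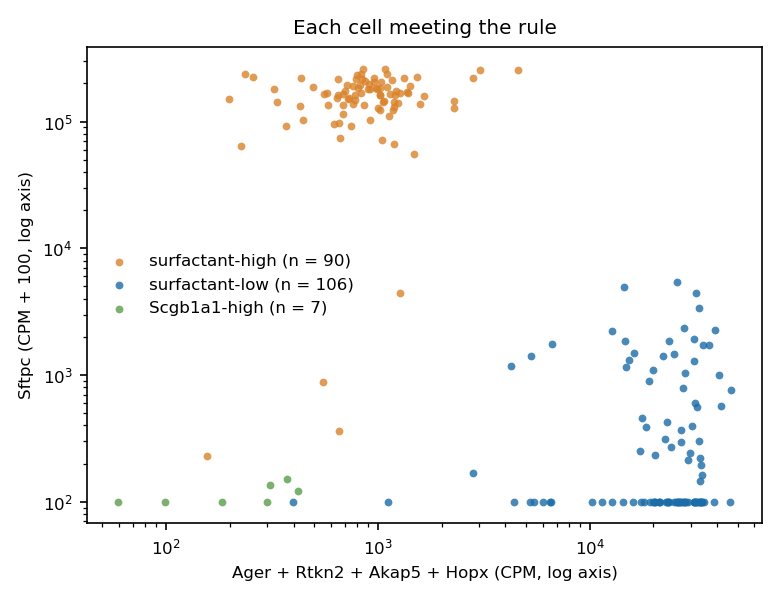
Each point is 1 of the 203 cells, with the summed rule markers (CPM) on the x axis and Sftpc (CPM + 100) on the y axis, both log axes. Most surfactant-high cells lie at upper left, most surfactant-low cells at lower right, around medians of 882 and 25873 CPM of markers, and the 7 Scgb1a1-high cells at lower left.

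The Scgb1a1-high cells came from Smad4fl/fl 2 (3 cells), Smad4iko 2 (2), Smad4iko 3 (1) and Smad4iko 4 (1). They drew 21.3% to 75.7% of their UMIs from Scgb1a1, at a median of 50602 UMIs per cell. Another 2 surfactant-high cells, 1 in Smad4fl/fl 2 and 1 in Smad4iko 3, also drew at least 67.9% from it, and the rest at most 0.644%. Over all members, 10 club and goblet markers summed to 4389, 342685, 4313, 5489.9, 405656, 444774 and 105702 CPM in Smad4fl/fl 1 to 3 and Smad4iko 1 to 4, high in the 4 libraries that held Scgb1a1-high cells.

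At the threshold, 10 cells missed the rule with a marker sum of 3 and 18 met it with a sum of 4. The 10 outside held 94932 CPM of Sftpc, 216 CPM of Ager and 192 CPM of Scgb1a1. The 18 inside held 46583, 162 and 366708 CPM of these genes, and neither side held an Igfbp2 UMI. These are pooled levels. The 1 Scgb1a1-high cell of Smad4iko 3 gave 67577 of the 184703 UMIs inside and 50233 of the 67732 Scgb1a1 UMIs.

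AT1 genes that the rule did not use divided the sets in the same way. Of 42 genes for AT1 structure and membrane, 37 were at least 2-fold higher in surfactant-low cells when pooled and higher in all 4 libraries, and 0 were lower by the same measure. Over 7301 genes with at least 20 UMIs, 12.4% were higher and 7.71% lower. The median difference was 3.13 on the log2(CPM + 10) scale for the list and 0.38 over all genes. These values come from the cells that were split and are no independent check of it.

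Igfbp2, a binding protein of insulin-like growth factors known to mark mature AT1 cells in mice, stood at 1726, 1396, 2113 and 4326 CPM in surfactant-low and 4.00, 0, 0 and 0 CPM in surfactant-high cells. The Smad4iko 4 value rests on 4 cells, with an interval of 3469.8 to 5330.1 CPM. A UMI of Igfbp2 was found in 69.8% of surfactant-low cells and 0.0607% of leukocytes, which were deeper, with library medians of 4454 to 6151 UMIs. Igfbp2 lay far above the leukocyte background in the surfactant-low set and near 0 in the surfactant-high set.

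Spock2, a secreted proteoglycan, stood at 1182, 1266, 1456 and 2212 against 4.00, 0, 0 and 0 CPM. Pdpn, the podoplanin of the apical AT1 membrane, stood at 949.9, 617, 812 and 1524 against 4.00, 0, 0 and 21.4 CPM. Cav1, the caveolar coat protein, stood at 1557, 1233, 1218 and 1622 against 30, 10.9, 0 and 15.3 CPM. For all 3 genes the lowest surfactant-low library lay above the highest surfactant-high library.

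Emp2, a tetraspan membrane protein, was present in both sets, at 4573, 5615, 4185 and 4326 against 388, 513, 266 and 373 CPM. Keratins were uneven. Krt7 stood at 1629.7, 1590.4, 1428 and 2655 against 148, 360.2, 8.06 and 73.5 CPM. Krt8 (439, 292, 462 and 1082 against 338, 196, 290.3 and 175 CPM) and Krt18 (308, 195, 336 and 246 against 226, 371, 298 and 156 CPM), which pair in the filaments of simple epithelia, did not reach a 2-fold pooled difference, and Krt18 was not higher in every library.

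**Figure D3:**
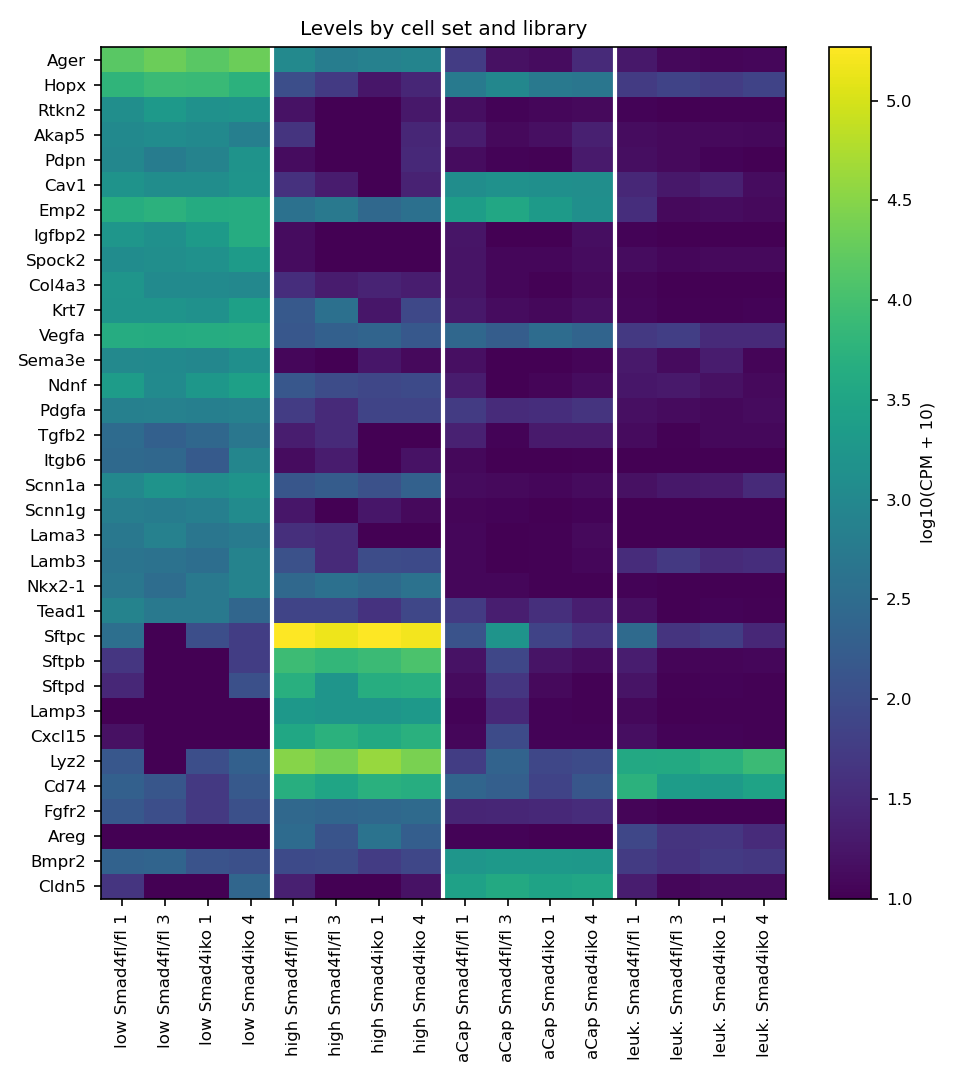
Colour gives log10(CPM + 10) of 34 genes in 4 cell sets (surfactant-low, surfactant-high, aCap-like, leukocytes) and 4 libraries. Igfbp2, Spock2, Col4a3 and Scnn1g are brightest in the surfactant-low columns, Cav1 and Emp2 also in aCap-like cells, Nkx2-1 in both member sets, and Sftpb, Sftpd and Lamp3 in the surfactant-high columns.

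The secreted signals included genes far above every other set measured. Vegfa, the growth factor that capillary endothelium receives through Kdr and Flt1 (ENSMUSG00000023951, chr17:46016993-46032369, minus strand), stood at 4433, 4252, 4395 and 4523 CPM in surfactant-low cells. It stood at 134, 196, 226 and 138 CPM in surfactant-high cells, 257, 173, 307 and 224 CPM in aCap-like cells and 41, 52.4, 22.4 and 21.8 CPM in leukocytes. The 4 surfactant-low values lay close together, with intervals of 4213 to 4661 CPM in Smad4fl/fl 1 and 3646 to 5547 CPM in Smad4iko 4.

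Ndnf, a secreted neurotrophic factor, stood at 2263, 1104, 1792 and 2655 against 136, 87.3, 72.6 and 82.7 CPM. Sema3e, a semaphorin that signals through plexin D1, stood at 994, 1039, 952 and 1327 against 2.00, 0, 8.06 and 3.06 CPM. Pdgfa, the ligand of Pdgfra on fibroblasts, stood at 718, 747, 686 and 737 against 48, 21.8, 64.5 and 64.3 CPM. The genotypes are not compared for these signals. Few libraries gave surfactant-low levels, and the share of all genes whose genotypes part there was not counted. Differences between genotypes in these signals were not tested.

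Tgfb2, a TGF-beta ligand, stood at 296, 195, 252 and 492 against 12, 21.8, 0 and 0 CPM. Tgfb1 stood at 20.3, 0, 28 and 0 CPM in surfactant-low cells and 121, 162, 146 and 169 CPM in leukocytes. Itgb6, the integrin chain that with Itgav activates latent TGF-beta, stood at 276, 259.7, 154 and 885 against 4.00, 10.9, 0 and 6.12 CPM. Its value in Smad4iko 4 rests on 18 UMIs, with an interval of 524 to 1399 CPM, above the 76.9 to 275 CPM of Smad4iko 1, so these libraries of 1 genotype differed beyond counting error.

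Wnt3a, a Wnt ligand, had a UMI in 21.7% of surfactant-low cells and in 1 of 34585 leukocytes. Its level was 69.7, 64.9, 112 and 49.2 CPM, on 24, 2, 8 and 1 UMIs. Wnt7a stood at 23.2, 32.5, 84 and 0 CPM and had a UMI in 0 surfactant-high cells and 0 leukocytes. Of 37 secreted signals with enough UMIs, 18 were higher and 5 lower in the surfactant-low set, beside 12.4% and 7.71% of all 7301 genes. Among the 5 were Areg, an EGF-family ligand, at 300.2, 120.1, 419 and 178 CPM in surfactant-high cells, and the alarmin Il33 at 220.1, 229, 459.7 and 236 CPM. Neither had a UMI in the surfactant-low cells of these 4 libraries.

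**Figure D4:**
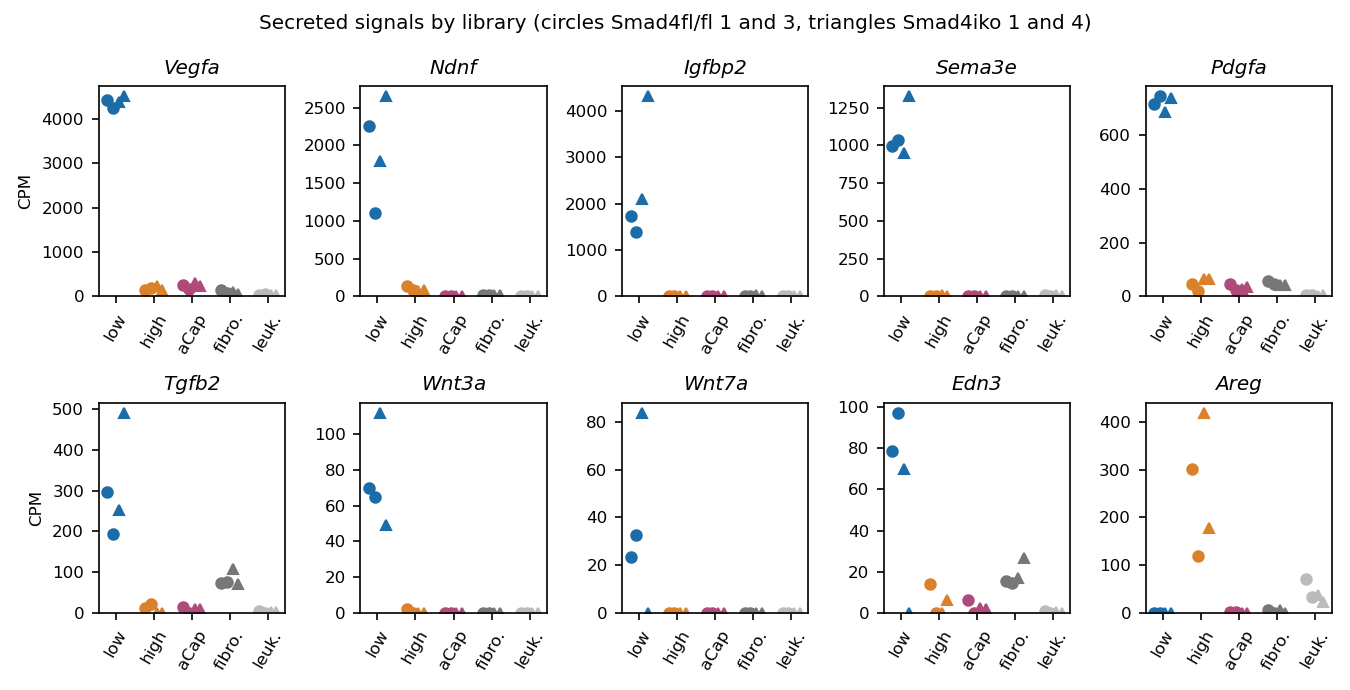
Points give the CPM of 10 secreted signals in surfactant-low, surfactant-high, aCap-like and fibroblast-like cells and leukocytes, 1 point per library, circles for Smad4fl/fl 1 and 3 and triangles for Smad4iko 1 and 4, each panel from 0. Vegfa, Ndnf, Igfbp2, Sema3e and Pdgfa are highest in surfactant-low cells of every library, and Areg in surfactant-high cells.

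Basement membrane genes were mostly higher in the surfactant-low set, 23 of 27 with enough UMIs, and 1 was lower. The shares over all 7301 genes were 12.4% higher and 7.71% lower. Col4a3 and Col4a4, collagen IV chains of the alveolar basement membrane, stood at 1647, 1104, 1092 and 983 and at 1357, 1266, 979.7 and 1377 CPM, where surfactant-high cells held at most 26 and 78 CPM. Lama3 and Lamb3, laminin chains of epithelia, stood at 508, 747, 462 and 589.9 and at 427, 389, 336 and 787 CPM. The 1 that was lower was Egfl6, an EGF-domain matrix protein, with 412, 415, 339 and 471 CPM in surfactant-high cells and no UMI in surfactant-low cells of these libraries.

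Transport genes divided, 8 higher and 10 lower of 20, beside 12.4% and 7.71% of all 7301 genes. Scnn1a, Scnn1b and Scnn1g, the subunits of the epithelial sodium channel, stood at 976, 1558, 1232 and 1573, at 308, 552, 462 and 442 and at 654, 617, 686 and 1131 CPM in surfactant-low cells, and at most at 199, 24.2 and 8.06 CPM in surfactant-high cells. Atp1b1, a sodium pump subunit, ran the other way, at 180.1, 64.9, 112 and 0 against 1117, 829.6, 1331 and 1209 CPM. The chloride channel Cftr had no UMI in the surfactant-low cells and stood at 204, 54.6, 226 and 98 CPM in the surfactant-high cells. Of 30 junction and adhesion genes, 12 were higher and 1, Cldn3, lower, beside the same 12.4% and 7.71%.

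Among transcription regulators, Nkx2-1 stood at 485, 325, 518 and 787 against 262, 371, 274 and 401 CPM, without a consistent order between the sets. Tead1 stood at 813, 519, 532 and 246 against 64, 65.5, 32.3 and 70.4 CPM. Of 31 genes for AT1 transcription and the Hippo pathway with enough UMIs, 5 were higher and 9 lower in the surfactant-low set. Of 18 YAP-TAZ target genes, 7 were higher and 1 lower. Beside these lists stand 12.4% higher and 7.71% lower of all 7301 genes. Ccn2, a target of YAP and of TGF-beta, stood at 793, 0, 1134 and 1475 CPM with 0 UMIs in Smad4fl/fl 3. Etv5, an ETS factor of AT2 cells, stood at 300.2, 458, 363 and 569 CPM in surfactant-high cells and had no UMI in surfactant-low cells. Id2 stood at 37.8, 0, 14 and 0 against 350.2, 371, 395 and 432 CPM and Id3 at 325, 325, 252 and 197 against 22, 10.9, 24.2 and 12.2 CPM, so these inhibitors of helix-loop-helix factors went in opposite directions.

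Receptors went both ways. Tgfbr2, the TGF-beta type II receptor, stood at 288, 162, 224 and 344 against 46, 54.6, 88.7 and 64.3 CPM. Bmpr2, the BMP type II receptor, stood at 212, 227, 112 and 98.3 against 80, 87.3, 48.4 and 70.4 CPM, far below the 1755, 1963, 1945 and 1869.9 CPM of aCap-like cells. Igf1r stood at 192, 259.7, 238 and 147 against 2.00, 10.9, 8.06 and 6.12 CPM. Met, the hepatocyte growth factor receptor, had no UMI in surfactant-low cells and 172, 207, 169 and 156 CPM in surfactant-high cells, and Fgfr2 stood at 142, 97.4, 42 and 98.3 against 270.1, 240.2, 258 and 291 CPM. Of 53 other receptors with enough UMIs, 14 were higher and 9 lower in the surfactant-low set, beside 12.4% and 7.71% of all 7301 genes.

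Of 13 AT2 markers outside the gates, 12 were higher in the surfactant-high set, beside 7.71% of all 7301 genes. The AT2 gate defines that set, so this count describes the split and is no independent check of it. Lyz2, a lysozyme of AT2 cells and myeloid cells, stood at 30708, 23775, 40031 and 25575 CPM there and 134, 0, 98 and 197 CPM in surfactant-low cells, beside 3750.1, 3859.7, 5205 and 7988 CPM in leukocytes. Cd74, the invariant chain of MHC class II, stood at 4714, 3177, 5048 and 4482 against 195, 129.8, 42 and 147 CPM. The 16 leukocyte markers summed to 35467, 27148, 45184 and 30219 CPM in surfactant-high cells, nearly all from Lyz2 and Cd74, and to 453, 422, 504 and 492 CPM in surfactant-low cells.

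Markers of other cell types differed in level in the surfactant-low set. The 10 aCap markers summed to 4639, 5615, 4185 and 4769 CPM, against 5943, 9219, 5846 and 5790.4 CPM in aCap-like cells and 408, 524, 266 and 389 CPM in surfactant-high cells. Emp2, given above and known in AT1 cells too, made up most of the surfactant-low sum. The 13 gCap and endothelial markers summed to 119, 0, 98 and 295 CPM, against 14116, 16954, 16055 and 17873 CPM in aCap-like cells, and Kit, Tie1 and Aplnr were at 0. The 9 ciliated markers summed to 2231, 3441, 2197 and 1573 CPM, of which Sec14l3 and Tppp3 made up nearly all, with Foxj1, Ccdc153, Tmem212 and Rsph1 at 0. The 9 mesothelial markers summed to 764, 941, 1134 and 1327 CPM, mainly Krt19 and Gpm6a, with Upk3b, Wt1 and Lrrn4 at 0, and the 5 basal markers were at 0.

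The 13 alveolar fibroblast markers summed to 5557, 3213, 1946 and 2065 CPM in surfactant-low cells. Npnt and Limch1, which AT1 cells also express, held much of this, at 1467, 1039, 868 and 836 and at 1909, 2077, 909.8 and 1032 CPM. Inmt and Mfap4 stood at 909 and 442 CPM in Smad4fl/fl 1 and had no UMI in the other 3 libraries, while leukocytes of Smad4fl/fl 1 held 242 and 117 CPM. The part of fibroblast RNA in the levels of Smad4fl/fl 1 was not tested.

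Within the 76 surfactant-low cells of Smad4fl/fl 1, 38 held fewer than 1500 UMIs and 38 at least 1500. Vegfa stood at 1333 CPM (979 to 1772) in the shallower and 4787 CPM (4546 to 5037) in the deeper cells. Of the rule markers, Akap5 and Hopx ran the other way, at 2382 and 890.1 and at 8733 and 5907 CPM. Ager and Rtkn2 were higher in the deeper cells, at 13553 and 15513 and at 680 and 1369 CPM. The rule asks for at least 4 marker UMIs, so a shallow cell must hold a high CPM of them to enter. Igfbp2 stood at 1956 and 1699 CPM, with overlapping intervals. Even the shallower cells held more Vegfa than the 134 CPM of the surfactant-high cells of that library.

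A test across all genes was made against aCap-like cells, the aerocyte type of capillary endothelium on the other side of the barrier. It took all members together, with edgeR's quasi-likelihood test on UMIs summed per library and the library as a block, in Smad4fl/fl 1 to 3 and Smad4iko 1 and 4, which held at least 10 cells of both types. Of 8491 genes outside the gates, 1537 were higher in the members (18.1%) and 2029 lower (23.9%) at an adjusted p under 0.05. Surfactant-high cells hold 1367232 of the members' 2177593 UMIs, so the calls describe the mix.

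The 12 named genes with the largest positive change were mostly AT2 genes: Chia1, Cbr2, Sftpa1, Sfta2, Pla2g1b, Hc, Sftpd, Wfdc2, Cxcl15, Sftpb, Lgi3 and Prr15l, with log2 changes of 8.82 to 9.62. Cbr2, a carbonyl reductase, stood at 5106 ± 1622 CPM in members and 13.9 ± 13.9 CPM in aCap-like cells (SD, n = 5), and with edgeR its log2 change was 9.47 (SE 0.70, adjusted p = 7.3e-07). In surfactant-low cells alone, Wfdc2 and Prr15l still exceeded aCap-like cells by 3.85 to 5.83 and by 4.04 to 4.75 on the log2(CPM + 10) scale over 4 libraries. Chia1 differed there by -0.11 to 0.00 and Hc by -0.66 to 0.27, near 0.

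The 12 named genes with the largest negative change were Kit, Tie1, Sox18, Tnfsf10, Arap3, Sema7a, Mfng, Stab1, Robo4, Fgd5, Cd93 and Adgrl4, many of them known endothelial genes. The first 10 had no UMI in the members. Kit, a receptor tyrosine kinase, was at least 188-fold lower and Tie1, an endothelial receptor, at least 182-fold lower, with 3 UMIs over the members of the 5 libraries as the floor. All 11 tested gCap and endothelial markers were lower, and of the 12 tested AT2 markers all were higher. The shares over all 8491 genes were 23.9% lower and 18.1% higher. The gates had already parted the cells by endothelial UMIs, and 90 members met the AT2 gate. These counts therefore describe the choice of cells and are no independent check of it.

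Of 39 tested genes for AT1 structure and membrane, 28 were higher and 5 lower, beside 18.1% and 23.9% of all 8491 genes. The median log2 change was 3.22 against -0.14 over all genes tested. Among the genes described above, edgeR gave Scnn1a a log2 change of 7.56 (SE 0.27, adjusted p = 3.5e-08), Ndnf of 7.34 (SE 0.44, adjusted p = 1.6e-07) and Vegfa of 2.11 (SE 0.42, adjusted p = 0.0018). The 5 that fell were Cav1, Cav2, Cavin1, Cavin2 and Pmp22, all but the last genes of caveolae. Cav1 fell by 2.34 (SE 0.60, adjusted p = 0.008) on the log2 scale with edgeR over all members, but the surfactant-low cells stood at 1557, 1233, 1218 and 1622 CPM and aCap-like cells at 1208, 1451, 1336 and 1295 CPM, which overlap. Cavin2 likewise stood at 2239.8, 1623, 1973 and 1524 against 1916, 1959.8, 1661 and 1857 CPM, whereas Cav2 was lower in the surfactant-low cells of each library, at 610.1, 519, 476 and 589.9 against 666, 905, 629 and 746 CPM.

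**Figure D5:**
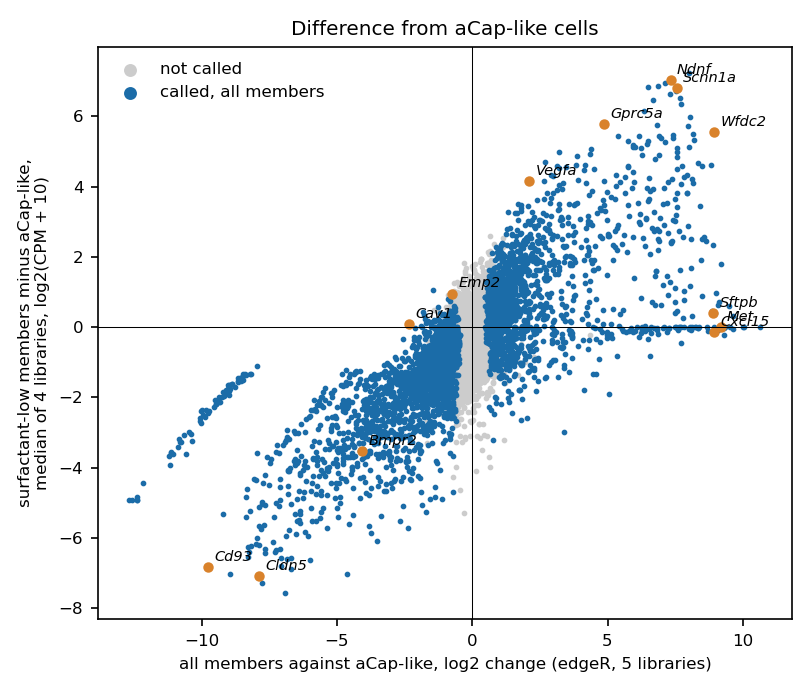
Each point is a gene: the x axis gives the edgeR log2 change of all members against aCap-like cells in 5 libraries, the y axis the median over 4 libraries of surfactant-low minus aCap-like cells in log2(CPM + 10), with called genes in blue and named genes in orange. The row of points along 0 at the right, with Met and Cxcl15, holds genes called higher over all members whose surfactant-low level lies near that of aCap-like cells.

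Of the 1537 genes that rose, 630 (41%) also lay above aCap-like cells in the surfactant-low cells of all 4 libraries, and 118 (7.68%) lay below in all 4. Of the 2029 that fell, 1494 (73.6%) lay below in all 4 and 10 (0.493%) above. The surfactant-low cells are part of the members that gave the calls, so these counts are no independent check of them. The same shares over all 8491 genes were not counted. In surfactant-low cells, a single UMI equals 32.5 CPM in Smad4fl/fl 3 and 49.2 CPM in Smad4iko 4. A gene at a low level can therefore lack UMIs there and count as below. The part of depth in these shares was not tested.

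Of 11 tested TGF-beta, BMP and activin receptors, 5 were lower and 1, Bmpr1a, higher. With edgeR, Bmpr1a, a BMP type I receptor, had a log2 change of 2.85 (SE 0.35, adjusted p = 4.4e-05). Bmpr2 fell by 4.05 (SE 0.24, adjusted p = 1.5e-07) and Acvrl1, an endothelial type I receptor, fell by 6.51 (SE 0.41, adjusted p = 2.3e-07) on the log2 scale with edgeR. Tgfbr2 was not called. Of 46 tested secreted signals, 20 were higher and 20 lower, and of 21 Smads and feedback genes 5 were higher and 9 lower. Beside these lists stand 18.1% higher and 23.9% lower over all 8491 genes. Inmt, the fibroblast gene, stood at 1538, 433, 961 and 77.8 CPM in aCap-like cells, lowest in Smad4iko 4, and the part of fibroblast RNA in these calls was not tested.

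The comparison of Smad4iko with Smad4fl/fl joins Smad4 deletion to the presence of Cre, which the controls lacked, so these cannot be told apart. Deletion was not aimed at AT1 cells, so effects by way of other cell types cannot be told apart either. Smad4 itself stood at 54.5, 38.5 and 65.3 CPM in the members of Smad4fl/fl 1 to 3 and at 46, 38.8, 11.3 and 52.8 CPM in those of Smad4iko 1 to 4, on 46, 14, 8, 9, 3, 2 and 21 UMIs in that order. The groups overlapped. In leukocytes, with far more UMIs, Smad4 stood at 85.8, 93.3 and 92.3 against 61.3, 53.5, 40.7 and 55.5 CPM. The genotypes were not tested in leukocytes, and the share of all genes that part there was not counted. Since the floxed exon is not given, UMIs from the 3' end need not read the deleted part.

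The members made up 1.43% (exact binomial 95% interval 1.18 to 1.71), 0.209% and 0.181% of kept barcodes in Smad4fl/fl 1 to 3 and 0.306%, 0.0890%, 0.107% and 0.367% in Smad4iko 1 to 4. The means were 0.605% ± 0.711 (SD, n = 3) and 0.217% ± 0.140 (SD, n = 4). The difference of -0.387 percentage points did not pass a two-sided exact permutation test (p = 0.371, smallest possible 0.0286 over 35 splits). Without Smad4fl/fl 1 the difference turned to 0.0228 points.

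Surfactant-low cells, taken over barcodes with no Ptprc UMI, were 1.96%, 0.0988% and 1.72% in Smad4fl/fl 1 to 3 and 1.52%, 0.251%, 0.106% and 0.549% in Smad4iko 1 to 4, and the genotypes overlapped. Members over members plus AT2-like cells outside the rule were 90.5% ± 5.36 (SD, n = 3) and 91.2% ± 1.32 (SD, n = 3) where at least 10 such cells were found (two-sided exact permutation test, p = 0.900, smallest possible 0.100). The rule takes most cells of the AT2 gate, so this share says little of AT1 cells.

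Genes were tested between genotypes over the libraries with at least 10 members, 3 Smad4fl/fl and 2 Smad4iko. With edgeR, 0 of 5135 genes passed an adjusted p under 0.05 (0%), 192 had an unadjusted p under 0.05, and DESeq2 called 3. Smad4 stood at 52.8 ± 13.5 CPM (SD, n = 3) and 49.4 ± 4.79 CPM (SD, n = 2), a log2 difference of -0.05 (SE 0.35) by edgeR. Between the groups, 807 genes did not overlap (15.7%).

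The makeup of the members varied within each genotype. Surfactant-high cells were 33.9%, 73.3% and 38.5% of members in Smad4fl/fl 1 to 3 and 30% and 80% in Smad4iko 1 and 4. Of 41 tested AT1 structure genes, 32 had lower and 9 higher values in Smad4iko, and of 13 AT2 markers 11 had higher values, with none called. Over all 5135 genes tested, 2654 had lower and 2481 higher values. The part of the makeup in these values was not tested.

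The genes with the smallest p in each direction are given as values, since none passed. With higher values in Smad4iko these were Cox6a2, Lamtor1, Prps2, Tfcp2l1 and Pcbd1, with log2 differences of 1.18 to 2.23. With lower values they were Emp1, Mbp, Krt80, Dapk2 and Mgp. Krt80, an epithelial keratin, stood at 41.5, 24.8 and 81.7 CPM in Smad4fl/fl 1 to 3 and 10.2 and 5.03 CPM in Smad4iko 1 and 4. Emp1, a relative of Emp2, stood at 35.5, 90.8 and 73.5 CPM and had no UMI in Smad4iko 1 and 4, but stood at 25.9 and 33.8 CPM in Smad4iko 2 and 3, which held too few members to enter. Scgb1a1-high cells gave 24 Emp1 UMIs in Smad4fl/fl 2, 2 in Smad4iko 2 and 2 in Smad4iko 3. A single UMI of the members equals 2.75, 12.9 and 5.63 CPM in these libraries.

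Mgp, a calcification inhibitor made by stromal cells, stood at 994, 1406 and 32.7 CPM in members of Smad4fl/fl 1 to 3 and at 25.6, 12.9, 0 and 15.1 CPM in Smad4iko 1 to 4, beside 1377, 59.9 and 75.1 and 127, 63.2, 9.61 and 43.2 CPM in leukocytes. The alveolar fibroblast markers summed to 2514, 1279.8, 1021, 982, 38.8, 101 and 402 CPM in the members of Smad4fl/fl 1 to 3 and Smad4iko 1 to 4, highest in Smad4fl/fl 1. In surfactant-high cells alone they summed to 2294 CPM in Smad4fl/fl 2, where Mgp was highest, and 46.6 to 427 CPM in the other libraries. The part of fibroblast RNA in the Mgp values was not tested.

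Of 17 tested Smads and TGF-beta feedback genes, 15 had lower and 2 higher values in Smad4iko, with a median of -0.35 on the log2 scale against -0.02 over all genes tested, and 0 were called by edgeR (2 at an unadjusted p under 0.05). Of 12 TGF-beta output genes, 9 had lower and 3 higher values, with a median of -0.24, beside the 2654 lower and 2481 higher of all 5135 genes. Of 20 dissociation and stress genes, 17 had lower and 3 higher values, with a median of -0.26, and of 5 alveolar fibroblast markers 4 had lower values. The part of these lists in the values of the TGF-beta lists was not tested. In surfactant-low cells Id3 stood at 325 and 325 CPM in Smad4fl/fl and 252 and 197 CPM in Smad4iko, the last on 4 UMIs with an interval of 53.6 to 503 CPM. Smad7, a feedback inhibitor, stood at 63.9 and 0 CPM against 56 and 98.3 CPM. No test between genotypes was made in the surfactant-low cells.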

How the data were processed

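Lung cells were measured by 3' single-cell RNA sequencing, 1 library per mouse sample. The authors deposited unnormalized UMI counts for each gene in each barcode. Cell Ranger 6.1.1 produced the matrices, per the file headers, and fastp, UMI-tools and mm10 appear in the submitters' processing notes.

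Barcodes were kept with at least 600 UMIs, 300 genes and at most 20% mitochondrial UMIs. Scrublet (scanpy 1.11.5, expected rate 6%) marked 1.67% to 3.74% of barcodes per library, which were left in. aCap-like cells held at least 2 UMIs of Cdh5 and Pecam1 and 3 of Car4, Ednrb and Fibin, with no Ptprc or Epcam UMI; fibroblast-like cells at least 3 of Col1a1, Col1a2 and Col3a1 and 2 of Tcf21, Npnt and Inmt; leukocytes at least 2 Ptprc UMIs and no Epcam or Cdh5 UMI. Chi-square values between libraries of a group were 85.2 to 668 per gene, no library was taken for a copy, and pairs shared 10 to 23 kept barcodes. The labels name separate mouse samples and no further detail, so p-values measure the spread between these samples.

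UMIs were summed per library and cell set and tested with edgeR 4.0.16 (filterByExpr, TMM, quasi-likelihood test, Benjamini-Hochberg over all genes tested, R 4.3.3), checked on simulated data. Genes of the gates were not counted. Alternatives were DESeq2 1.42.0, RLE size factors, no filter, other cell minimums, thinning to 1500 UMIs per cell, no library block, a covariate, a replicate block, stricter marker, mitochondrial and doublet filters, and leaving out each library. Of 31253 gene IDs, 31107 matched GENCODE M21.

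The members, the 24 lists and the alternatives were chosen with earlier results of these data known. Over all genes, the 12 with the largest called change in each direction, with a mean log2 CPM of 6 or more and one direction in all libraries tested, were named (for genotype, the 5 smallest p). Genes named between the member sets, and the same genes against aCap-like cells, were chosen after their values were seen. Levels of different genes are not compared, since UMIs are not scaled to length.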

Additional observations from a re-analysis of the deposited data

How the results depend on the processing

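The planned test of members against AT2-like cells outside the rule, and its alternatives, was not run, since no library held 5 such cells. Against aCap-like cells, thinning to 1500 UMIs per cell left 2130 genes to test and 873 calls, 829 of them among the 3566 reported and in the same direction. Leaving out 1 library gave 2839 to 3614 calls, DESeq2 4143 (of 19018 genes, median log2 change 0.46 over all genes tested, against -0.14 with edgeR) and no filter on low counts 4902; the other settings gave 3324 to 3865. None of these settings reversed a reported call.

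Between genotypes, edgeR called 0 genes (192 at an unadjusted p under 0.05). DESeq2 called 3, no filter 117, at least 20 cells per library 46 (1 Smad4fl/fl against 2 Smad4iko libraries, the former assumed to vary like the latter), and leaving out 1 library 0 to 14, the 14 without Smad4iko 4. The causes were not tested. Leaving out 1 library, the log2 difference of Smad4 ran from -0.31 to 0.14, with the sign changed without Smad4iko 1, as with at least 20 cells (0.0160).

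The replicate block could not be fitted for genes at 10 cells per library, because the libraries left share only number 1; with at least 5 cells, chosen after seeing the data, the replicate block called 0 genes. Deviations of same-numbered libraries correlated at 0.417, 0.205 and -0.0595 for numbers 1 to 3, so the numbers were not taken as pairs. The block gave a share difference of -0.437 points of kept barcodes and -1.20 points of alveolar epithelial cells.

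Leaving out 1 library, the share of kept barcodes differed by -0.599 to 0.0228 points, reversed without Smad4fl/fl 1, and the share of alveolar epithelial cells (0.654) by -1.27 to 3.72, reversed without Smad4fl/fl 2 (-0.485), Smad4fl/fl 3 or Smad4iko 4 (-0.0590). Few cells limit most values: 4 surfactant-low cells carry each Smad4iko 4 level.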
